A study of Mus musculus with 3 samples.

Results

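Parietal cells of the mouse stomach were set against pit cells and zymogenic cells, with 1 array for each lineage. The array labelled parietal is 1 of 3 arrays of the series, and genes were described by whether their value on it lay above or below the values on both other arrays. Of 18193 genes, 4136 exceeded a detection floor of 23.3 on at least 1 array. Of these 4136 genes, 138 had a parietal value at least 2-fold above each other value and 16 one at least 2-fold below each, under each of 2 scalings. Cells were cut from gastric epithelium with a laser spot 7.5 µm wide. Parietal cells, which bind the lectin DBA and fluoresce on their own, were taken singly from the pit zone, and pit cells, which stain for E-cadherin but not DBA, were then taken from the apex of the same gastric units. Zymogenic cells, which stain for E-cadherin but for neither GSII nor DBA, came from the base zone on other slides after basal parietal cells had been cut out and thrown away, so that lineage and slide cannot be told apart there. Each array carried RNA pooled over 4 to 5 mice and 3000 to 5000 cells. The labels name no treatment, and the sources used here do not give strain, genotype, age or sex.

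The parietal cell secretes gastric acid. A proton pump of an alpha and a beta subunit exchanges cytoplasmic protons for luminal potassium, potassium and chloride channels return the counter-ions to the lumen, and carbonic anhydrase supplies the protons. The pump rests in tubulovesicles and is moved to the apical canaliculus when histamine, gastrin or acetylcholine act on the cell, and the work is paid for by a cytoplasm crowded with mitochondria. Pit cells make the surface mucus, and zymogenic (chief) cells make pepsinogen and other digestive enzymes.

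With 1 array of pooled RNA per lineage there is no replicate error, and precision is limited by the number of arrays. Values are intensities in linear units, compared within a probe set and not between genes, and where 3 values stand without names they are in the order parietal, zymogenic and pit. The probe set with the highest mean stands for its gene, values under the floor are raised to it before a fold is taken, and where the lower side is at the floor the fold is written as at least its value. The number of genes above the floor was 2809 for the parietal, 2281 for the zymogenic and 2615 for the pit sample. Over the 1184 genes that exceeded the floor everywhere, the median log2 difference was 0.64 against the zymogenic array and 0.29 against the pit array, and quantile normalization brought these to 0.01 and 0.05. In what follows a gene is therefore called higher or lower only where it was at least 2-fold apart from both other arrays both as deposited and after quantile normalization. The ratio of the 3′ to the 5′ beta-actin control probe sets was 26.1 in the parietal, 14.7 in the zymogenic and 9.04 in the pit sample. Its 5′ values were 23.7, 5.23 and 36.8, so the zymogenic one was under the floor and the parietal one close to it. The Gapdh ratio was 8.84, 3.88 and 6.66, with each of its 5′ values under the floor. The controls thus ordered the zymogenic and pit samples differently. The part of these ratios in the results was not tested.

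The identity of the array was checked against 14 parietal cell markers, of which 7 were above the floor on an array. Atp4b, the proton pump's beta subunit, read 4402 in the parietal, 793 in the zymogenic and 102 in the pit sample. It was clearly highest on the parietal array as deposited, at 5.55-fold over the zymogenic array, but this ratio fell to 1.95-fold after quantile normalization and so just missed the call. Atp4a, its catalytic alpha subunit, read 214 in the parietal, 261 in the zymogenic and 12.5 in the pit sample. It was thus no higher on the parietal than on the zymogenic array, and was under the floor on the pit array. Clic6, a chloride intracellular channel family protein of parietal cells, read 232 in the parietal, 109 in the zymogenic and 10.6 in the pit sample. Its 2.14-fold lead over the zymogenic array became 1.31-fold after quantile normalization. Car2, the carbonic anhydrase of acid secretion, read 731 in the parietal, 14.98 in the zymogenic and 209.8 in the pit sample. Car2 was the only one of the 7 that was called higher, at 3.48-fold over the pit array as deposited and 2.79-fold after quantile normalization, against a background of 138 of 4136 genes (3.34%).

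The remaining markers above the floor did not separate the parietal array from the zymogenic array. Kcnq1, the potassium channel that recycles potassium to the lumen, read 29.1 in the parietal, 60.5 in the zymogenic and 3.71 in the pit sample. Slc4a2, the basolateral anion exchanger that removes bicarbonate, read 48.6 in the parietal, 54.4 in the zymogenic and 13.4 in the pit sample. Hip1r, an endocytic adaptor of the parietal cell, read 65.9 in the parietal, 69.3 in the zymogenic and 79.4 in the pit sample. All 3 were lower on the parietal than on the zymogenic array, Hip1r and Slc4a2 only slightly so. Under the floor on all 3 arrays were the channel subunit Kcne2 (22.4, 15.8 and 4.22), the anion exchanger Slc26a7 (20.4, 4.99 and 1.57), the nuclear receptor Esrrg (14.5, 2.61 and 4.27), the histamine receptor Hrh2 (11.5, 2.72 and 9.43), the somatostatin receptor Sstr2 (11.2, 17.8 and 5.47), the water channel Aqp4 (5.64, 6.40 and 3.75) and Fndc5 (2.17, 3.44 and 4.87). Kcne2, Slc26a7, Esrrg and Hrh2 had their highest value on the parietal array, without reaching the floor. Over the 7 markers above the floor the median log2 difference was 1.80 against the pit array and -0.072 against the zymogenic array, and it was 1.48 and -0.70 after quantile normalization. The corresponding medians over all 4136 genes were 0 and 0.14 as deposited and 0 against both arrays after quantile normalization. The markers therefore set the parietal array apart from the pit array, and of the 7 only Car2, Atp4b and Clic6 had a higher value on it than on the zymogenic array.

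**Figure D1:**
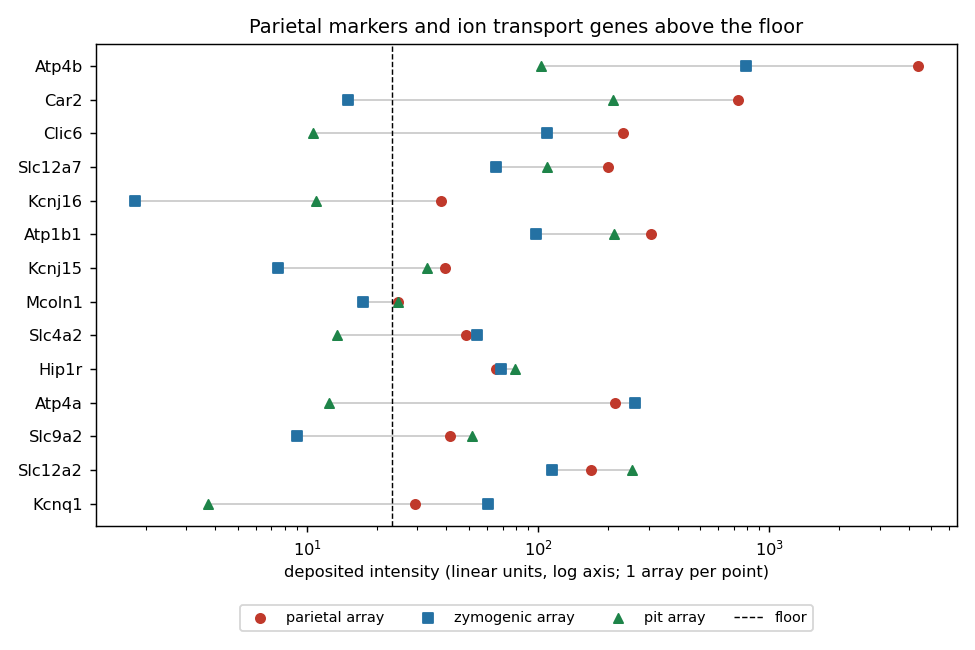
Deposited intensity (linear units, log axis) of the 14 parietal marker and acid transport genes above the floor, with 1 point for each of the parietal, zymogenic and pit arrays and the floor of 23.3 as a dashed line. Genes are ordered by the ratio of the parietal value to the higher of the others, from Atp4b at 5.55 to Kcnq1, for which the zymogenic array is highest.

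The mix of cells on each array was described with markers of the neighbouring lineages. All 15 pit cell markers were above the floor on the parietal array, where they summed to 23602, against 320 in the zymogenic and 27244 in the pit sample. Gkn1, a gastrokine secreted by surface mucous cells, read 10493 in the parietal, 12.5 in the zymogenic and 8307 in the pit sample. Muc5ac, the surface mucin, read 425 in the parietal, 14.5 in the zymogenic and 1225 in the pit sample. Krt20, a keratin of mature surface cells, read 32.2 in the parietal, 8.83 in the zymogenic and 657 in the pit sample. Pit cell transcripts were thus near their pit-array level on the parietal array for some markers and far below it for others. The sums rest largely on a few genes, Gkn1 and Gkn2 (7987) on the parietal array and Psapl1 (9552) and Gkn1 on the pit array. Psapl1 read 353 on the parietal array. The 11 zymogenic cell markers summed to 3679 in the parietal, 26488 in the zymogenic and 382 in the pit sample, and 7 of the 8 above the floor were at least 2-fold lower than on the zymogenic array, against 315 of 4136 genes (7.62%). Of these, colipase (Clps) read 2889 in the parietal, 10450.5 in the zymogenic and 199 in the pit sample and pepsinogen C (Pgc) read 217 in the parietal, 4593 in the zymogenic and 9.88 in the pit sample, while the intrinsic factor gene Cblif was under the floor at 2.62 on the parietal array against 558 on the zymogenic array. No enteroendocrine marker was above the floor on the parietal array. In bulk samples fewer cells of a type and less RNA per cell cannot be told apart. The part that pit and zymogenic RNA on the parietal array has in the results was not tested.

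The other transporters of acid secretion split between the arrays, and none reached the call. Slc12a7, a potassium-chloride cotransporter, read 201 in the parietal, 65.5 in the zymogenic and 109 in the pit sample. The sodium pump subunit Atp1b1 read 306 in the parietal, 98.2 in the zymogenic and 214 in the pit sample. Kcnj16, an inwardly rectifying potassium channel, read 38.00 in the parietal, 1.79 in the zymogenic and 10.9 in the pit sample and was above the floor on the parietal array alone. These 3 genes were highest on the parietal array, with ratios to the higher of the others of 1.84-fold, 1.44-fold and at least 1.63-fold. Kcnj15, another channel of that family, read 39.4, 7.49 and 33.1. The endosomal cation channel Mcoln1 read 24.8, 17.5 and 24.6. The sodium-proton exchanger Slc9a2 (41.4, 9.07 and 51.6) and the cotransporter Slc12a2 (169, 115 and 255) were highest on the pit array. In all, 13 of the 21 measured genes of this list were above the floor, 1 of them on the parietal array alone. As deposited 3 were at least 2-fold higher than on both others, which compares with 309 of 4136 genes (7.47%), and 1, Car2, under both scalings.

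Genes of the signals that start acid secretion and of the membranes that carry the pump were not called higher. Of 18 secretagogue receptor and signalling genes, 8 were above the floor on an array and none was called either way. Over all genes 3.34% were called higher and 0.387% lower, and at these shares lists this short would hold few or no called genes. Gnas, the stimulatory G protein subunit through which histamine acts, read 122 in the parietal, 83.6 in the zymogenic and 75.3 in the pit sample. The gastrin receptor Cckbr read 22.3, 24.6 and 27.4, and the muscarinic receptor Chrm3 was under the floor on all 3. Of 27 genes of tubulovesicle traffic and the apical cytoskeleton, 22 were above the floor and none was called, against the same shares of all genes. Rab11a, the small GTPase of recycling vesicles, read 67.6 in the parietal, 18.5 in the zymogenic and 34.5 in the pit sample and was highest on the parietal array at 1.96-fold the pit value. Clathrin heavy chain (Cltc) read 61.4 in the parietal, 24.7 in the zymogenic and 29.6 in the pit sample, a ratio of 2.08 that became 1.73 after quantile normalization. Ezrin (Ezr), which ties actin to the apical membrane, read 142 in the parietal, 13.2 in the zymogenic and 171 in the pit sample, and Lasp1, an actin-binding protein of the parietal cell, read 484 in the parietal, 68.2 in the zymogenic and 1072 in the pit sample. Both were highest on the pit array. Against the zymogenic array alone, 7 of these 22 genes were at least 2-fold higher under both scalings, against 501 of 4136 genes (12.1%), and against the pit array alone 3 were at least 2-fold lower, against 265 genes (6.41%). Of 10 measured growth factor genes linked to parietal cells, only Vegfa (41.6, 30.7 and 66.6) and Tgfa were above the floor. Tgfa, a ligand of the EGF receptor, read 15.8 in the parietal, 513 in the zymogenic and 10.2 in the pit sample, so that its signal was on the zymogenic array.

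Across the array, genes higher than on both others were more numerous than genes lower. As deposited, 309 of 4136 genes (7.47%) were at least 2-fold higher and 16 (0.387%) at least 2-fold lower. After quantile normalization these numbers were 138 (3.34%) and 29 (0.701%). The same 138 and 16 genes met the threshold under both scalings. The call thus sat partly on the scaling, since 171 genes passed as deposited and not after quantile normalization. At 4-fold, 48 genes (1.16%) were higher as deposited and 25 (0.604%) under both scalings. Just inside the 2-fold limit after quantile normalization stood Pdk1 at 2.00-fold, Plekhg1 at 2.01-fold and Sox21 at 2.01-fold, and just outside it stood Gsta4, Sod2 and Acadl, all at 1.99 to 2.00-fold. Of the 4136 genes, 515 (12.5%) were above the floor on the parietal array alone and had to be higher there. Leaving these out, 88 of 3621 genes (2.43%) were called higher.

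**Figure D2:**
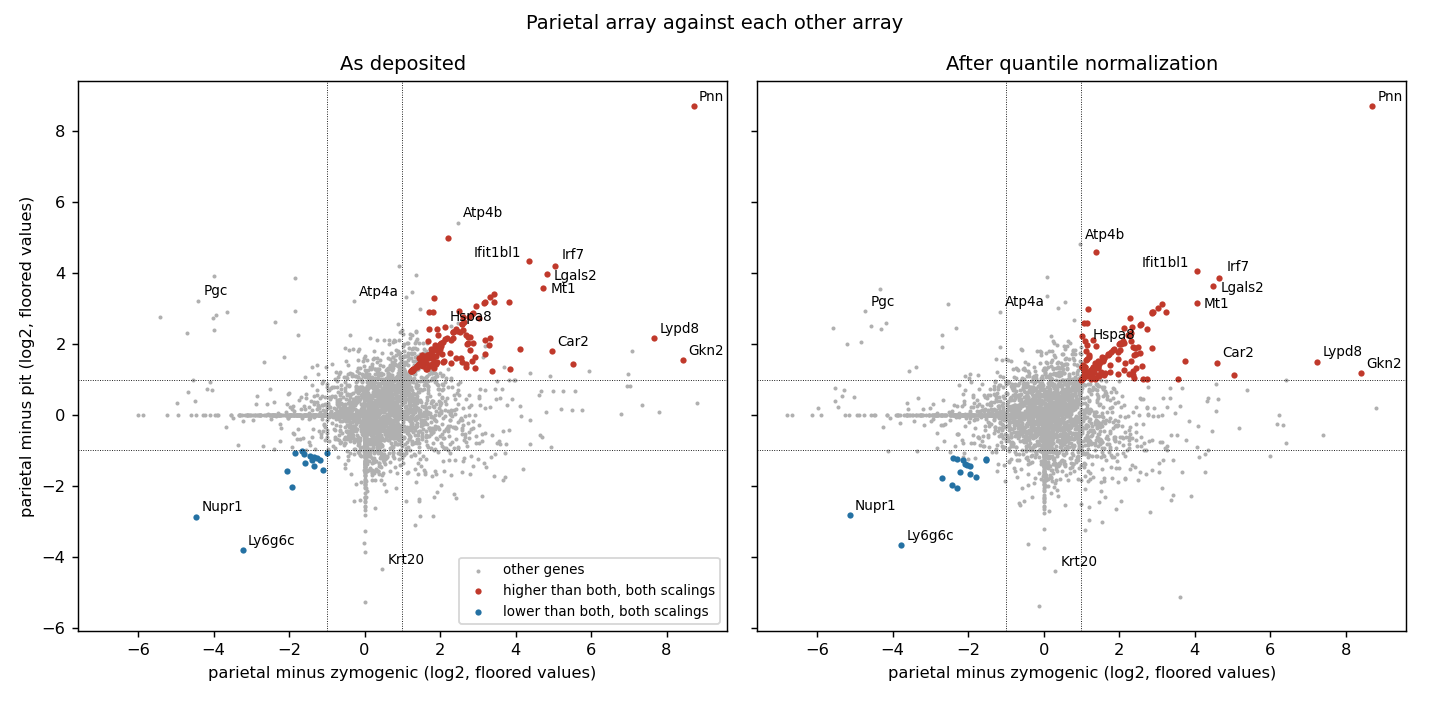
Log2 difference of the parietal from the zymogenic array (x axis) and from the pit array (y axis) for each gene above the floor, as deposited on the left and after quantile normalization on the right, with dotted lines at 2-fold. The 138 genes higher than on both arrays under both scalings are red and the 16 lower ones are blue, and Atp4b, just short of the 2-fold line against the zymogenic array after quantile normalization, is not red.

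The repeat measurement that the series offers is a further probe set of the same gene. Among the 138 genes called higher, 78 had a further probe set, 33 had one above the floor, 10 had one that met the same call and none had one that met the opposite call. The 10 were Lgals2, Ifi35, B2m, Hspa1b, Apoa1, Hspa8, Ndufv2, Ran, Hsp90aa1 and Slc25a5. Lgals2, a galectin of the gut epithelium, read 657 in the parietal, 5.94 in the zymogenic and 42.1 in the pit sample. Its further probe set read 135 in the parietal, 16.3 in the zymogenic and 21.9 in the pit sample, so both placed the parietal array far above the others, at 15.6-fold and at least 5.81-fold. Probe sets did not always repeat. Pnn, which encodes the splicing-associated protein pinin, had the largest ratio of the array, at 9778 in the parietal, 2.36 in the zymogenic and 5.30 in the pit sample, or at least 420.3-fold. Its further probe sets read 5.94 and 2.23 on the parietal array and were under the floor on all 3. Ddr1, a collagen receptor kinase, read 143 in the parietal, 2.22 in the zymogenic and 26.98 in the pit sample, but its 5 further probe sets above the floor were highest on the pit array. In 574 comparisons of probe sets of the same gene, the SD of their log2 ratios was 0.49, which describes measurement scatter on these arrays and not the spread between animals.

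Of the gene lists examined, the interferon-stimulated genes had the most members called higher. These are genes that type I and type II interferons switch on, and their products sense, bind or degrade viral RNA or mark proteins for destruction. Irf7, the transcription factor that amplifies the type I interferon response, read 762 in the parietal, 21.6 in the zymogenic and 41.1 in the pit sample. The parietal value stood 18.5-fold above the pit value, and 14.4-fold after quantile normalization. Ifit1bl1, of the family that binds foreign RNA, read 474 in the parietal, 6.43 in the zymogenic and 20.1 in the pit sample, which is at least 20.4-fold higher than both. Oas1a, an oligoadenylate synthetase that starts RNA decay, read 539 in the parietal, 37.9 in the zymogenic and 59.4 in the pit sample, or 9.07-fold over the pit array. In all of these the parietal array alone was high, and the zymogenic and pit arrays were far below it. Igtp, an interferon-inducible GTPase, read 208 in the parietal, 21.3 in the zymogenic and 6.17 in the pit sample. Ifi35 read 414 in the parietal, 53.8 in the zymogenic and 49.4 in the pit sample, a ratio of 7.70. Its 2 further probe sets read 231 and 55.3 on the parietal array and at most 26.6 on the others.

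The rest of the list followed in smaller steps. Of 47 measured members 26 were above the floor on an array, 18 were at least 2-fold higher as deposited and 16 under both scalings, against the 3.34% of all genes. None was called lower, which was so for 0.387% of all genes. Since 13 of the 26 passed the floor through the parietal array alone, they had to be higher there. Of the 13 above the floor on another array, 7 were called higher, against 2.43% of such genes. The called genes beyond those above were Ifi27l2b, Ifi27l2a, Oasl2, Oas2, Ifit1, Ifit3, Parp14, Parp12, Ifih1, Usp18 and Lgals3bp. Ifih1, a cytoplasmic sensor of double-stranded RNA, read 82.8 in the parietal, 1.02 in the zymogenic and 19.3 in the pit sample. Usp18, the protease that removes the ubiquitin-like ISG15, read 70.9 in the parietal, 9.93 in the zymogenic and 4.70 in the pit sample. Both were under the floor on the zymogenic and pit arrays. Rsad2 and Rtp4 passed as deposited and not after quantile normalization, at 1.92-fold and 1.58-fold. Not every member was higher. Oasl1 read 178 in the parietal, 1.91 in the zymogenic and 178 in the pit sample, Trim25 read 298 in the parietal, 40.9 in the zymogenic and 334 in the pit sample and the transcription factor Irf1 read 44.9 in the parietal, 24.8 in the zymogenic and 52.2 in the pit sample. These 3 were as high or higher on the pit array. The list's median log2 difference was 1.77 against the zymogenic array and 1.72 against the pit array, and 1.46 against each after quantile normalization, where all 4136 genes had medians of 0.14 and 0 as deposited. These medians include the 13 genes that had to be higher, and over the 13 others they were 2.74 and 2.21 as deposited.

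**Figure D3:**
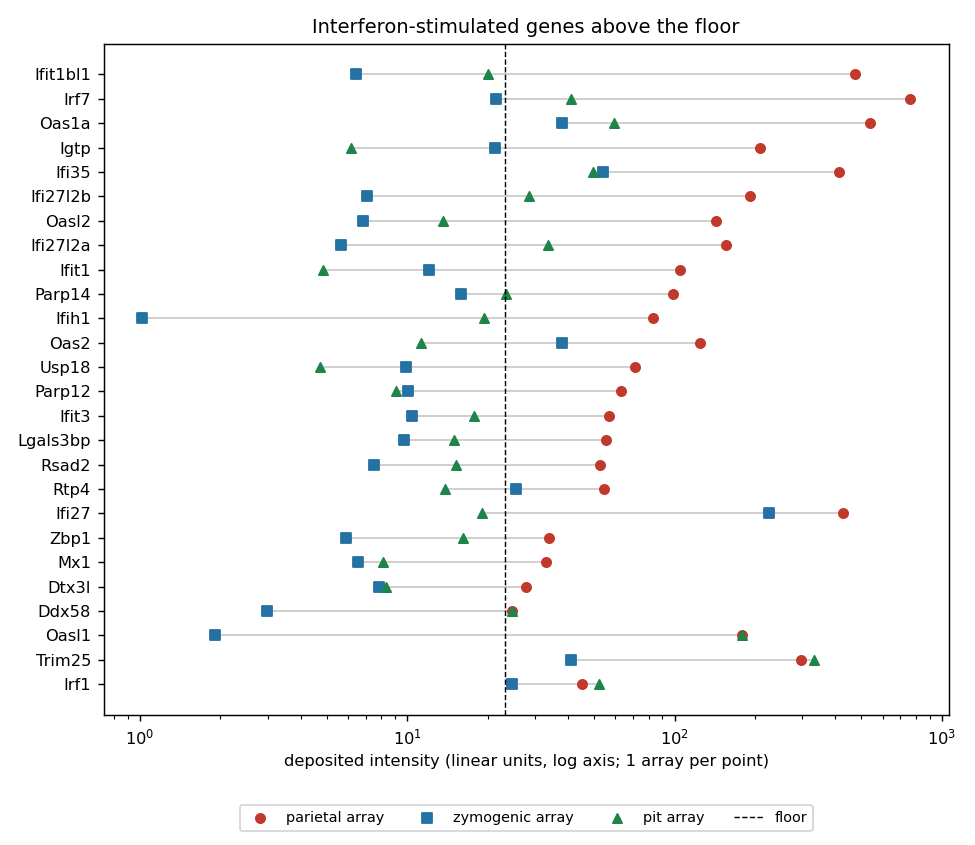
Deposited intensity (linear units, log axis) of the 26 interferon-stimulated genes above the floor on at least 1 array, with 1 point for each array and the floor of 23.3 as a dashed line. The parietal array is highest for most genes, from Ifit1bl1 down, while Oasl1, Trim25 and Irf1 at the bottom are as high or higher on the pit array.

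The interferon-stimulated response element is the DNA motif by which this group is known. Promoter sequences are shown for 5 of the called genes, those with a match to it in the bases printed. The sequences are from RefSeq on GRCm38.p6 and give the 200 bases before the start site, 5′ to 3′ on the gene's strand, with each match to the element in capitals. It was searched on both strands as GAAA, 2 bases of any kind and GAAA again. They lie at chr19:34640689-34640888 (plus strand) for Ifit1, chr19:34583329-34583528 (plus strand) for Ifit3, chr19:34601969-34602168 (minus strand) for Ifit1bl1, chr5:120907526-120907725 (minus strand) for Oas1a and chr11:58199356-58199555 (plus strand) for Igtp.
Ifit1: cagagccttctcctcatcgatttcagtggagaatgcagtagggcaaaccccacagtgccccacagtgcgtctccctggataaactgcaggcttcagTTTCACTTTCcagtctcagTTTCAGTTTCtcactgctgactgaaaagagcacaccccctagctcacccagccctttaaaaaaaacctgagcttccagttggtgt
Ifit3: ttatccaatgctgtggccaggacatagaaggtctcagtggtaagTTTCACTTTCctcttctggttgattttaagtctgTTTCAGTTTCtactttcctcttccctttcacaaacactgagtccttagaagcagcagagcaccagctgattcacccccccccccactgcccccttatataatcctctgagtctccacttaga
Ifit1bl1: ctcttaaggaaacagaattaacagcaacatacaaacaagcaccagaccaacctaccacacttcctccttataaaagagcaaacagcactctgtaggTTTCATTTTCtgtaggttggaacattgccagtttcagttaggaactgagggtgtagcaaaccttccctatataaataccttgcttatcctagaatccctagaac
Oas1a: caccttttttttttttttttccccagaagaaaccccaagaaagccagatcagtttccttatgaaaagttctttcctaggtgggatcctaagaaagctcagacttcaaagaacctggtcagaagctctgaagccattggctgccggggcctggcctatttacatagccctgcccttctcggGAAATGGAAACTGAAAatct
Igtp: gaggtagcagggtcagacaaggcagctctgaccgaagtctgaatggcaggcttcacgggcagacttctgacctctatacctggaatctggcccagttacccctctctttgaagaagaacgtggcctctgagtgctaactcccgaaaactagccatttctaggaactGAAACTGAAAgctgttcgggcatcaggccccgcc
Ifit1 holds matches that begin 104 and 85 bases before the start site, and Ifit3 holds them at 156 and 122 bases. Ifit1bl1 holds a match at 104 bases, Igtp has its match at 34 bases, and in Oas1a the matches at 20 and 14 bases overlap. Over windows from 250 bases before to 50 bases after the start site, the motif stood in 1079 of 27025 genes of the promoter table (3.99%). It stood in 18 of the 34 measured list genes that were in the table (52.9%) and in 6 of the 11 called genes that were in it (54.5%). The 6 include Ifih1, whose match lies after the start site, while Irf7, Ifi35, Oasl2, Parp12 and Lgals3bp had no match. The list as a whole and its called members thus carried the motif at a like share. A match is a description of the letters and not of a bound site.

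Genes next to this list gave a mixed picture. B2m, the light chain of MHC class I, read 159 in the parietal, 25.8 in the zymogenic and 16.2 in the pit sample, a ratio of 6.14 to the zymogenic array. Its further probe set read 63.5 in the parietal, 7.74 in the zymogenic and 3.54 in the pit sample, so both were highest on the parietal array. The heavy chain genes did not follow together. H2-K1 read 128 in the parietal, 22.01 in the zymogenic and 70.4 in the pit sample, and H2-D1 read 21.3 in the parietal, 141 in the zymogenic and 6.05 in the pit sample with its high value on the zymogenic array. Of 16 measured MHC class I presentation genes 8 were above the floor and 1 was called higher, against 3.34% of all genes. A further 6 called genes are known to be interferon-inducible and were chosen with their values known, Slfn2, Slfn4, Samhd1, Samd9l, Rnf213 and Helz2. Samhd1, which breaks down nucleotides needed by viruses, read 239 in the parietal, 23.9 in the zymogenic and 52.95 in the pit sample. Slfn2 read 117 in the parietal, 18.4 in the zymogenic and 3.61 in the pit sample and Slfn4 read 93.9 in the parietal, 16.4 in the zymogenic and 3.26 in the pit sample, both under the floor off the parietal array.

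Immune cell markers were set beside the interferon genes. The 15 measured markers summed to 556 in the parietal, 716 in the zymogenic and 227 in the pit sample, and 5 of them were above the floor on the parietal array. The leukocyte marker Ptprc read 3.04 in the parietal, 23.7 in the zymogenic and 2.81 in the pit sample, the T cell marker Cd3e was under the floor on all 3, and the B cell marker Cd79a read 0.453 in the parietal, 48.8 in the zymogenic and 4.99 in the pit sample. These 3 were far under the floor on the parietal array. The 5 above it there were markers of macrophages and of MHC class II. The macrophage receptor Csf1r read 111 in the parietal, 374 in the zymogenic and 22.4 in the pit sample and was highest on the zymogenic array. Adgre1, the macrophage surface marker F4/80, read 33.6 in the parietal, 5.83 in the zymogenic and 34.1 in the pit sample and the complement gene C1qb read 33.8 in the parietal, 23.8 in the zymogenic and 30.4 in the pit sample, both close to the floor. Cd74, the MHC class II invariant chain, read 166 in the parietal, 119 in the zymogenic and 63.1 in the pit sample and was highest on the parietal array as deposited and on the zymogenic array after quantile normalization. H2-Aa, an MHC class II chain, read 186 in the parietal, 84.2 in the zymogenic and 45.9 in the pit sample, and its ratio of 2.21 to the zymogenic array became 1.39 after quantile normalization. The part of immune cell RNA in the interferon values was not tested.

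Several genes of mitochondrial energy supply stood above both other arrays by the 2-fold limit as deposited, and few of them did so after quantile normalization. Of 32 complex I genes above the floor, 10 were at least 2-fold higher than on both arrays as deposited, against 7.47% of all genes, and 2 under both scalings, close to the 3.34% of all genes. Ndufv2, a subunit of the electron input module, read 259.9 in the parietal, 70.6 in the zymogenic and 68.1 in the pit sample. Ndufa6, an accessory subunit, read 116 in the parietal, 31.1 in the zymogenic and 36.6 in the pit sample. The ratios to the higher of the others were 3.68 and 3.17 as deposited and 2.31 and 2.49 after quantile normalization. A further probe set of Ndufv2 read 141 in the parietal, 41.3 in the zymogenic and 42.3 in the pit sample and met the same call. Of the 10, the 8 others had ratios after quantile normalization from 1.28 (Ndufb6) to 1.84 (Ndufb5). No complex I gene was called lower. The median log2 difference of the complex was 0.79 against the zymogenic array and 1.09 against the pit array, and 0.12 and 0.77 after quantile normalization. The distance to the pit array thus remained and that to the zymogenic array nearly closed.

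Calls were likewise fewer under both scalings in complexes II and III and in ATP synthase. The shares over all genes were 7.47% as deposited and 3.34% under both scalings. Complex III and cytochrome c had 3 of 9 genes at least 2-fold higher as deposited and none under both scalings, with Uqcrc2, a core subunit, at 3.10 and then 1.98. Complex II had 1 of 4 as deposited, the iron-sulfur subunit Sdhb, and none under both. Complex IV had none of 10 in either setting. Its medians were 1.21 against the zymogenic array and 0.27 against the pit array as deposited, and 0.38 and -0.05 after quantile normalization. The pit array thus lay close to the parietal array for this complex. ATP synthase had 6 of 16 as deposited and 3 under both scalings. Of the 14 above the floor on another array 2 were called, against 2.43% of such genes. Atp5g3, which encodes a subunit of the rotating ring, read 263 in the parietal, 71.7 in the zymogenic and 66.6 in the pit sample. Atp5g1, encoding the same ring protein, read 67.3 in the parietal, 9.30 in the zymogenic and 10.5 in the pit sample and was above the floor on the parietal array alone. Atpif1, the inhibitor that stops the enzyme from running backwards, read 173 in the parietal, 24.1 in the zymogenic and 59.7 in the pit sample. All 3 were highest on the parietal array, at 3.66-fold, at least 2.89-fold and 2.90-fold. A further probe set of Atpif1 did not repeat this, at 2.71 in the parietal, 30.1 in the zymogenic and 2.00 in the pit sample.

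Around the chain, the lists of carriers, import, citric acid cycle and mitochondrial ribosome had 1 called gene each, fatty acid oxidation had 3, and glycolysis and the regulators of biogenesis had none. Over all genes, 7.47% were at least 2-fold higher as deposited and 3.34% were called. The ADP/ATP carrier Slc25a5 read 346 in the parietal, 101 in the zymogenic and 108 in the pit sample, and it was the 1 gene called of 12 carriers and creatine kinases above the floor. Of its 7 further probe sets, the one with the largest ratio read 169 in the parietal, 23.8 in the zymogenic and 25.4 in the pit sample. Hspd1, the mitochondrial chaperonin, read 148 in the parietal, 39.5 in the zymogenic and 27.3 in the pit sample and was the 1 called of 15 import and chaperone genes. In the citric acid cycle list 4 of 14 genes were at least 2-fold higher as deposited and 1, the isocitrate dehydrogenase subunit Idh3b (153, 45.6 and 42.3), under both scalings. Suclg2, a subunit of succinyl-CoA ligase, went the other way between parietal and zymogenic arrays, at 9.06 in the parietal, 159.6 in the zymogenic and 2.28 in the pit sample. In fatty acid oxidation 5 of 18 were higher as deposited and 3 under both, Acaa2 (228, 64.2 and 14.1), Decr1 (72.8, 17.3 and 29.4) and the ketone body enzyme Bdh1 (176, 40.6 and 61.7). The mitochondrial ribosome had 33 genes above the floor, 10 of them on the parietal array alone, and 1 called, Mrpl51. Of 10 genes above the floor on the glycolysis list, Aldoa and Pgk1 were at least 2-fold higher as deposited and none under both scalings. The 10 include Pigq, which is not a glycolysis gene and was not called. Among 13 regulators of mitochondrial biogenesis, 3 were above the floor on an array and none was called.

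**Figure D4:**
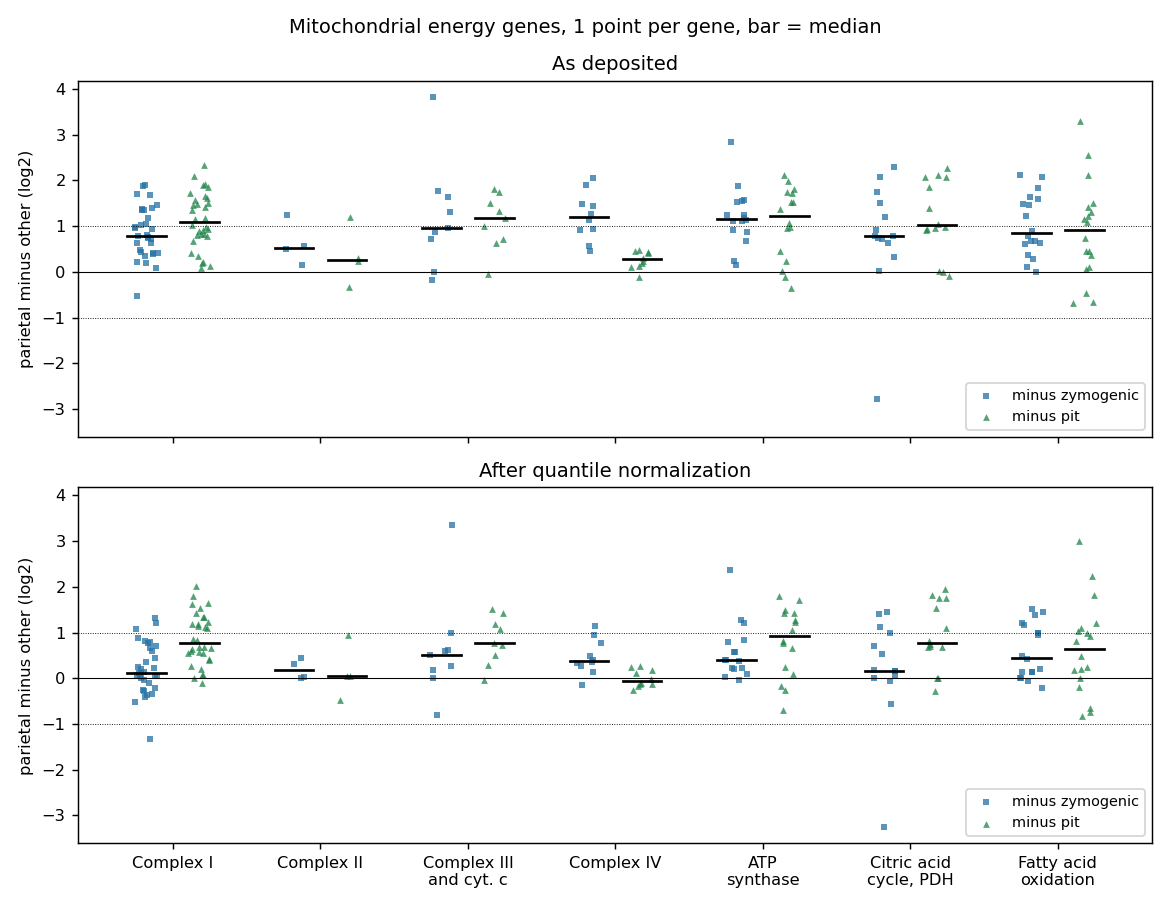
Log2 difference of the parietal array from the zymogenic array (blue squares) and from the pit array (green triangles) for each mitochondrial energy gene above the floor, by group, as deposited above and after quantile normalization below, with bars at the medians and dotted lines at 2-fold. Complex I medians of 0.79 and 1.09 become 0.12 and 0.77, and the far low point of the citric acid cycle group is Suclg2.

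The estrogen-related receptor element is shown in Atp5g3 because it is a motif of mitochondrial gene promoters. The window, chr2:73911327-73911526 on the minus strand of GRCm38.p6 in RefSeq, carries AAGGTCA on the opposite strand, and the match in capitals begins 52 bases before the start site.
Atp5g3: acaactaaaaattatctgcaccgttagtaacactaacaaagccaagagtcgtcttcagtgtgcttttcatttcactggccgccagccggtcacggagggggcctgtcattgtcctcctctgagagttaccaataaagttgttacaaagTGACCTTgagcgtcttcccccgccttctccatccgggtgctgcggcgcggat
The motif, searched on both strands, stood in 5.38% of all genes in the table, in 25 of 208 measured genes of the mitochondrial lists and in 3 of the 10 called ones that were in the table.

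Chaperones of the heat shock response were a further group with several called members. Hspa8, the constitutive cytosolic HSP70, read 6033 in the parietal, 1387 in the zymogenic and 1069.7 in the pit sample. Its further probe sets above the floor read 138 in the parietal, 36.1 in the zymogenic and 27.03 in the pit sample and 109 in the parietal, 23.5 in the zymogenic and 16.1 in the pit sample. All 3 probe sets were highest on the parietal array and met the call. Hspb9, a small heat shock protein, read 339 in the parietal, 31.8 in the zymogenic and 37.3 in the pit sample, a ratio of 9.09. Dnaja1, a co-chaperone of HSP70, read 171 in the parietal, 10.1 in the zymogenic and 21.4 in the pit sample, and the stress-inducible HSP70 gene Hspa1b read 139 in the parietal, 9.39 in the zymogenic and 18.2 in the pit sample. Both were under the floor on the other arrays, which gives at least 7.33-fold and at least 5.98-fold. A further probe set of Dnaja1 read 28.1 in the parietal, 7.01 in the zymogenic and 6.48 in the pit sample. At least 1.21-fold apart, it did not repeat the call. Hsp90aa1, the inducible HSP90, read 181 in the parietal, 55.7 in the zymogenic and 24.3 in the pit sample. Of 16 heat shock genes above the floor, 7 were at least 2-fold higher as deposited and these 5 under both scalings, against 7.47% and 3.34% of all genes. Since 5 of the 16 were above the floor on the parietal array alone, they had to be higher there. Of the 11 above the floor on another array 3 were called, against 2.43% of such genes. Not all members were higher, since Cryab read 2.48 in the parietal, 49.96 in the zymogenic and 5.65 in the pit sample and Hspb1 read 9.55 in the parietal, 42.8 in the zymogenic and 20.97 in the pit sample. The list's medians were 1.22 and 1.15 against the zymogenic and pit arrays and 0.69 and 0.89 after quantile normalization. Over the 11 alone they were 1.54 and 1.16, and 0.97 and 0.90.

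The heat shock element, searched as GAANNTTC on both strands, is shown in the promoters of Hspa1b (chr17:34959239-34959438, minus strand) and Dnaja1 (chr4:40722268-40722467, plus strand), from RefSeq on GRCm38.p6. Capitals mark the match, which begins 104 and 124 bases before the start site.
Hspa1b: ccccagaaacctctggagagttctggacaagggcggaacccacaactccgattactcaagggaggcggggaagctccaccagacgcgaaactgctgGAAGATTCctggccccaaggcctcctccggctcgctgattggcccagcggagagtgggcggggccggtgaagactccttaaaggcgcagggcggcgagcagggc
Dnaja1: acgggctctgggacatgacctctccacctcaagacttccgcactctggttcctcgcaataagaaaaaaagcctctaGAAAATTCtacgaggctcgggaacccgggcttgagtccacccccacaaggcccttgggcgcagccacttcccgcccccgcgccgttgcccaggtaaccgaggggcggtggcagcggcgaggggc
It stood in 9.04% of all genes in the table, in 9 of 17 measured list genes and in 2 of the 3 called ones that were in the table. Dnaja1 has further start sites, and its windows that begin at chr4:40722722 and chr4:40722730 held no match. Counted by promoter, the motif stood in 2 of the 5 promoters of called genes and in 7.86% of all promoters.

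Machinery of protein synthesis and turnover lay higher as deposited and mostly lost the call after quantile normalization. Of 37 genes above the floor on the cytosolic ribosomal protein list, 15 were at least 2-fold higher as deposited, against 7.47% of all genes. Under both scalings 2 were, near the 3.34% of all genes. The 37 include Mrpl23, which encodes a mitochondrial ribosomal protein, is also on the mitochondrial ribosome list and was not called. Rpl7a read 2757 in the parietal, 486 in the zymogenic and 359.9 in the pit sample, and its ratio of 5.67 became 2.04. Rpl19 read 1882 in the parietal, 323 in the zymogenic and 619 in the pit sample. The 15 higher genes included Rps18, whose ratio of 3.21 became 0.957, below 1. Of 21 proteasome subunit genes above the floor, 9 were higher as deposited and 2 under both, Psmb1 (105, 25.7 and 27.1) and Psma3 (70.96, 25.97 and 23.2), and 8 of the 21 were above the floor on the parietal array alone. A further probe set of Psmb1 read 21.1 in the parietal, 2.05 in the zymogenic and 24.4 in the pit sample and did not repeat the call.

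Detoxifying and redox enzymes were higher on the parietal array than on the zymogenic array for many members, and less so against the pit array. Nfe2l2, the transcription factor of the antioxidant response, read 139 in the parietal, 13.6 in the zymogenic and 23.3 in the pit sample, or 5.94 times the pit value. Gstp1, a glutathione transferase, read 1976 in the parietal, 215 in the zymogenic and 455 in the pit sample. Gstm1, of the same superfamily, read 151 in the parietal, 16.9 in the zymogenic and 59.2 in the pit sample. Its further probe sets above the floor were also highest on the parietal array, at 1.27 to 1.51-fold, and did not repeat the call. All 3 genes were called higher by the probe sets first given. Of 23 antioxidant genes above the floor, 8 were at least 2-fold higher as deposited and these 3 under both scalings, against 7.47% and 3.34% of all genes. Gsta4 read 3165 in the parietal, 20.00 in the zymogenic and 908 in the pit sample and missed the call at 2.00-fold after quantile normalization. Against the zymogenic array alone, 12 of the 23 were at least 2-fold higher under both scalings, against 12.1% of all genes. Against the pit array alone 7 were, against 319 of 4136 genes (7.71%). Nqo1, a quinone reductase, shows this pattern with 166 in the parietal, 0.941 in the zymogenic and 135 in the pit sample.

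Alcohol, aldehyde and retinoid dehydrogenases had 18 genes above the floor, 7 at least 2-fold higher as deposited and 6 under both scalings, against 7.47% and 3.34% of all genes. Adh7, the alcohol and retinol dehydrogenase of the stomach, read 159 in the parietal, 22.9 in the zymogenic and 12.2 in the pit sample. Adh6a, another alcohol dehydrogenase, read 124 in the parietal, 8.82 in the zymogenic and 22.9 in the pit sample. Aldh3a1, an aldehyde dehydrogenase, read 92.5 in the parietal, 4.65 in the zymogenic and 10.2 in the pit sample. By these probe sets all 3 were under the floor on the other arrays, with ratios of at least 6.84-fold, at least 5.34-fold and at least 3.98-fold. A further probe set of Adh7 did not repeat this, since it read 45.7 in the parietal, 1.19 in the zymogenic and 49.2 in the pit sample and was slightly higher on the pit array. Aldh1a1, which makes retinoic acid, read 187 in the parietal, 26.8 in the zymogenic and 52.5 in the pit sample, and Akr1c13 (99.2, 30.9 and 11.3) and Cbr3 (514, 49.8 and 215) completed the 6. Adh1 read 124 in the parietal, 113 in the zymogenic and 72.5 in the pit sample and was nearly level across arrays. In this list 5 of the 18 were above the floor on the parietal array alone, and of the 13 others 3 were called, against 2.43% of such genes. Of 7 genes above the floor on the list of metallothioneins, iron and zinc handling, 2 were called, against 3.34% of all genes, and both are metallothioneins. Mt1, which binds zinc and copper, read 881 in the parietal, 33.2 in the zymogenic and 73.5 in the pit sample, or 11.98 times the pit value, and Mt2 read 55.8 in the parietal, 5.05 in the zymogenic and 7.96 in the pit sample. Mt2 was above the floor on the parietal array alone and had to be higher there. Of the 5 list genes above the floor on another array 1, Mt1, was called, against 2.43% of such genes. The remaining 5 of the 7 were not called, among them the ferritin heavy chain Fth1 at 239, 127 and 126.

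Some proteins of the mucous surface were higher on the parietal array than on the pit array itself. Gkn2, a gastrokine, read 7987 in the parietal, 8.28 in the zymogenic and 2723 in the pit sample. Lypd8, a secreted protein that keeps bacteria off the epithelium, read 4723 in the parietal, 9.07 in the zymogenic and 1049.6 in the pit sample. Tff2, the trefoil factor of mucous neck cells, read 402 in the parietal, 21.9 in the zymogenic and 110.4 in the pit sample. All 3 were called higher, with ratios to the pit array of 2.93, 4.50 and 3.65. Of the 6 measured markers of mucous neck cells, only Tff2 and Gkn3 were above the floor on an array. Gkn3 read 10.8 in the parietal, 8.56 in the zymogenic and 28.7 in the pit sample and was highest on the pit array. Muc1, a membrane mucin, read 137 in the parietal, 43.9 in the zymogenic and 42.5 in the pit sample, and Il33, an alarmin cytokine, read 168 in the parietal, 3.35 in the zymogenic and 23.2 in the pit sample. Of the 15 pit cell markers, Gkn2 and Muc1 were called higher, against 3.34% of all genes. Set against the pit array alone, 5 were at least 2-fold lower under both scalings, which compares with 265 of 4136 genes (6.41%). Psapl1 shows the latter pattern with 353 in the parietal, 12.1 in the zymogenic and 9552 in the pit sample. Of 8 mucosal defence genes above the floor 3 were called, Lypd8, Il33 and Cxcl17, against 3.34% of all genes. Since 2 of the 8, among them Il33, were above the floor on the parietal array alone, they had to be higher there. Of the 6 above the floor on another array 2 were called, against 2.43% of such genes.

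Few genes had their lowest value on the parietal array by at least 2-fold. The floor limits how far below a gene can be seen to lie. Ly6g6c, a small membrane-anchored Ly6 protein, read 14.1 in the parietal, 218 in the zymogenic and 325 in the pit sample. Its parietal value was under the floor, at least 9.38-fold below the zymogenic array. A further probe set read 11.5 in the parietal, 159 in the zymogenic and 228 in the pit sample. Nupr1, a stress-induced chromatin-associated protein, read 14.7 in the parietal, 510.1 in the zymogenic and 170.3 in the pit sample, at least 7.32-fold below the pit array. Its further probe set read 17.9 in the parietal, 454 in the zymogenic and 167 in the pit sample. For both genes each of these probe sets was under the floor on the parietal array alone. Sprr1a, a cornified envelope protein, read 16.02 in the parietal, 88.5 in the zymogenic and 94.8 in the pit sample. Tra2a, a splicing regulator, read 458 in the parietal, 1200.3 in the zymogenic and 1108 in the pit sample, but its 5 further probe sets were under the floor on all arrays. The others named by rule were Samt3, Rassf1, Tex43, Mettl17, Fancc and Pigu. The first 5 had parietal values 2.96 to 2.29 times below the lower of the others. Pigu read 18.9 in the parietal, 52.7 in the zymogenic and 56.3 in the pit sample and was at least 2.27-fold lower, but a further probe set read 32.03 in the parietal, 12.1 in the zymogenic and 19.4 in the pit sample and was highest on the parietal array. Of the 16 genes, 12 had a further probe set, 5 had one above the floor, and only Ly6g6c and Nupr1 had one that met the same call.

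The lists were set side by side over their members above the floor on the zymogenic or pit array, which leaves out genes that had to be higher on the parietal array and keeps those that had to be lower. Over 13 such members the interferon-stimulated list had medians of 2.74 against the zymogenic and 2.21 against the pit array, while the parietal markers were high against the pit array alone. Pit cell markers had a median of 3.36 against the zymogenic array and -0.25 against the pit array. Immediate early genes had 14 members above the floor and none called, where 2.43% of genes above the floor on another array were called higher. Their median was -0.78 against the pit array, where 5 were at least 2-fold lower under both scalings, against 265 of 4136 genes (6.41%). Zymogenic cell markers stood at -2.88 against the zymogenic array and 1.20 against the pit array. After quantile normalization the interferon list stood at 2.28 and 1.89, and every other list with at least 5 such members had a lower median against at least 1 of the arrays. Over all 3621 genes above the floor on another array the medians were 0.03 and 0 as deposited.

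**Figure D5:**
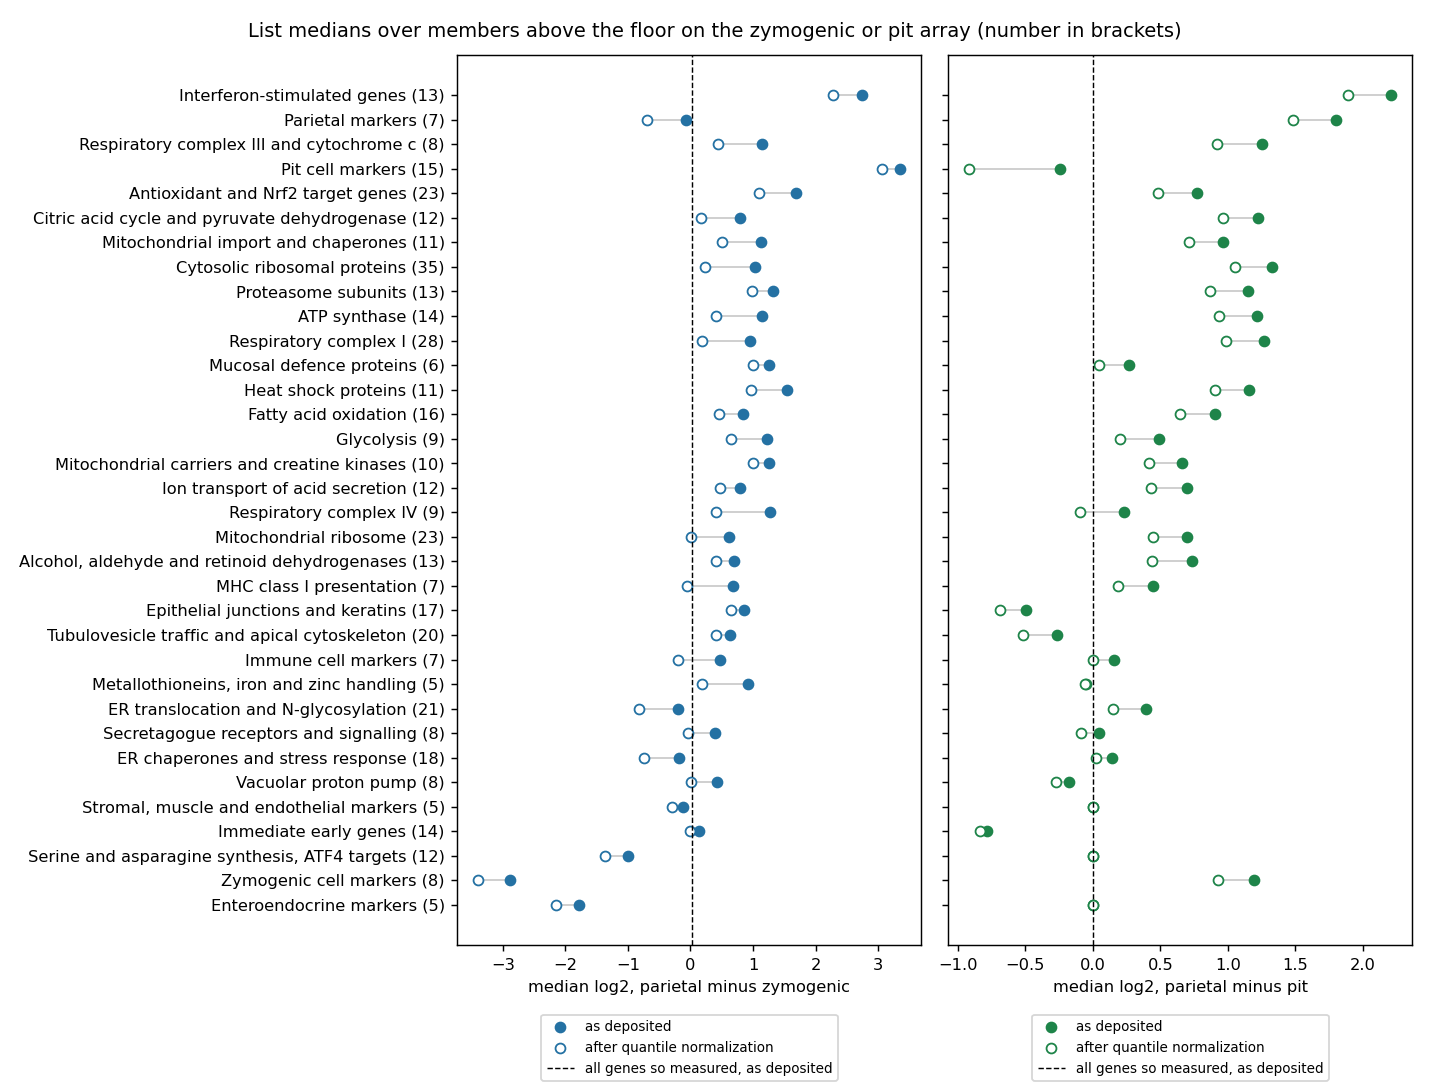
Median log2 difference of the parietal array from the zymogenic array (left) and from the pit array (right) for each list, over its members above the floor on the zymogenic or pit array where there are at least 5 of them, as deposited (filled) and after quantile normalization (open). The dashed line is the median of all 3621 genes so measured, 0.03 on the left and 0 on the right, and interferon-stimulated genes lie far to the right of it in both panels.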

How the data were processed

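The authors deposited 1 intensity per probe set and array on a linear scale, from Affymetrix Mouse Genome 430 2.0 arrays. How probes were summarised, corrected for background and scaled is not given in the sources used here. Per the labels' design text, 20 ng of pooled total RNA was amplified and labelled with biotin, while the molecule label reads nuclear RNA. Small-sample amplification can lose 5′ ends, which lowers probe sets lying upstream.

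Of 45101 probe sets, 64 controls were left out, 34958 name 1 gene, 932 name several and were not used, and 9160 are unnamed. Symbols of 34754 were updated through a RefSeq table. The floor is the highest over arrays of the 95th percentile of 78 olfactory and vomeronasal receptor probe sets. Quantile normalization ran over all probe sets. No test was made. The calculation was tested on simulated data.

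Named genes are the 15 with the largest ratio of parietal to the higher other array among genes above the floor on another, the 12 brightest above the floor on the parietal array alone, the 10 lowest, those repeated by a further probe set, list members by ratio, every parietal marker, and the acid transport genes above the floor. Members and lists were chosen with earlier results of these data known. Alternatives were other scalings, floors, probe set rules, thresholds and leaving out an array. Leaving out the controls as genes, the BioB and BioC probe sets averaged and the 3 lists traced across alternatives were settled after values were seen. Python 3.11.15, numpy 2.4.6, pandas 2.3.3 and matplotlib 3.10.9 were used.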

Additional observations from a re-analysis of the deposited data

Results flagged for a closer look

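Signal was present in probe sets that entered no comparison by gene, because the platform's gene table gives them no name. Of 9160 such probe sets, 510 exceeded the floor on at least 1 array, and 9 of them lay at least 2-fold above both other arrays on the parietal array under both scalings. Probe set 1446553_at read 142 in the parietal, 7.23 in the zymogenic and 9.54 in the pit sample, at least 6.10-fold apart. Probe set 1417185_at read 133 in the parietal, 26.1 in the zymogenic and 30.03 in the pit sample, or 4.43-fold. Probe set 1420917_at read 99.6 in the parietal, 0.120 in the zymogenic and 2.40 in the pit sample, at least 4.28-fold apart.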

How the results depend on the processing

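No paired analysis was possible because each lineage has 1 array, and no array could be left out as a replicate. The 309 genes higher than on both arrays as deposited became 138 after quantile normalization, 1598 when arrays were scaled to hybridisation controls (BioB, BioC), 494 with the floor at the 90th percentile, 181 with a floor 2 times higher, 182 with the floor as a pseudocount, 178 with transcript-specific probe sets, 48 at 4-fold, 496 against the pit array alone (without the zymogenic array) and 862 against the zymogenic array alone. The 16 genes lower became 29, 3, 47, 8, 6, 9, 2, 265 and 315 in the same order, and 8 when a gene's probe sets were averaged. With 1 median per array both counts stayed within 1.5 times. Quantile normalization with the floor recomputed, chosen after seeing the data, gave 125 and 28. The median log2 difference of the parietal markers from the mean of both arrays, 1.46, was 0.88 after quantile normalization, 0.80 with the lower floor, 0.96 with the higher floor, 0.39 with transcript-specific probe sets and 0.80 with the recomputed floor, and it turned to -0.072 without the pit array. That of complex I, 1.05, was 0.54 over the members above the floor once quantile normalized (0.48 over those above it as deposited) and 2.19 under control scaling, and that of the interferon list, 1.72, was 2.37 under control scaling and 1.22 with the higher floor. The pit cell markers turned from 1.33 to -0.25 without the zymogenic array. Over all lists, with each list counted once per alternative setting, 71 medians moved by more than the scatter between probe sets. Another 2 turned and 321 did neither, and 32 of the 71 were under control scaling. Ratios counted in the same way moved in 147 cases and stayed in 318, and none turned. The BioB and BioC controls averaged 359 in the parietal, 798 in the zymogenic and 784 in the pit sample, and the cause of these differences was not tested. The transcript-specific setting had no value for some named genes.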

Other observations

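Of the 138 genes called higher, 57 were in a list and 81 in none. Several of the latter had large ratios. Entpd7, an enzyme that splits nucleotides, read 248 in the parietal, 3.31 in the zymogenic and 20.2 in the pit sample. Sgk1, a kinase that raises the activity of ion channels and transporters, read 234 in the parietal, 10.2 in the zymogenic and 14.97 in the pit sample. Socs7, of the family that dampens cytokine signals, read 212 in the parietal, 5.39 in the zymogenic and 8.51 in the pit sample. By these probe sets all 3 were above the floor on the parietal array alone, with ratios of at least 10.7-fold, at least 10.1-fold and at least 9.12-fold. Further probe sets did not repeat this for Entpd7, whose 4 others were under the floor on all arrays, or for Socs7, of which 1 read 11.8 in the parietal, 25.6 in the zymogenic and 16.4 in the pit sample. Emp2, a membrane protein of epithelia, read 128 in the parietal, 7.89 in the zymogenic and 24.7 in the pit sample, and agrin (Agrn), a proteoglycan of basement membranes, read 141 in the parietal, 24.2 in the zymogenic and 27.97 in the pit sample. Further probe sets of Emp2 and Agrn were under the floor on all arrays and did not repeat the call. Clusterin (Clu), a secreted chaperone, read 2832 in the parietal, 510.0 in the zymogenic and 471 in the pit sample, and its ratio of 5.55 became 1.98 after quantile normalization, so that it was not called. Apolipoprotein A-I (Apoa1) read 734 in the parietal, 158 in the zymogenic and 12.4 in the pit sample and was called, as were its 3 further probe sets above the floor. The small GTPase Ran, which drives nuclear transport, read 616 in the parietal, 161 in the zymogenic and 175 in the pit sample.

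Some called genes outside the lists encode enzymes of mitochondria or peroxisomes and were chosen with their values known. The fatty acid isomerase Ech1 read 109.8 in the parietal, 27.6 in the zymogenic and 30.2 in the pit sample, and the peroxisomal phytanoyl-CoA hydroxylase Phyh read 203 in the parietal, 48.7 in the zymogenic and 61.2 in the pit sample. The ferredoxin Fdx1 read 69.6 in the parietal, 10.9 in the zymogenic and 21.2 in the pit sample, and the mitochondrial valyl-tRNA synthetase Vars2 read 156 in the parietal, 9.22 in the zymogenic and 38.2 in the pit sample. Each was highest on the parietal array. Of the keratins, Krt23 was called, at 97.4 in the parietal, 19.8 in the zymogenic and 34.2 in the pit sample, and those of simple epithelia had high parietal values without a call. Krt8 read 5879 in the parietal, 155 in the zymogenic and 3672 in the pit sample. Krt18 read 4436 in the parietal, 487 in the zymogenic and 1155 in the pit sample and Krt19 read 2928 in the parietal, 3.53 in the zymogenic and 1322 in the pit sample. The list of junction and keratin genes, which does not hold Krt23, had 18 genes above the floor. None was called, against 3.34% of all genes called higher and 0.387% lower.

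Some genes of the secretory pathway were lower on the parietal than on the zymogenic array. Of 18 endoplasmic reticulum chaperone and stress genes above the floor, 5 were at least 2-fold lower than on the zymogenic array under both scalings, against 315 of 4136 genes (7.62%). None was called against both arrays, where 3.34% of all genes were called higher and 0.387% lower. The list's median log2 difference from the zymogenic array was -0.18 as deposited and -0.75 after quantile normalization. Of 21 genes of translocation into the reticulum and N-glycosylation above the floor 3 were lower in this way. Their list's median was -0.19 as deposited and -0.83 after quantile normalization. Hyou1, a chaperone of the reticulum, read 39.8 in the parietal, 162 in the zymogenic and 41.97 in the pit sample. Of 12 genes of serine and asparagine synthesis and other ATF4 targets, 6 were lower in this way. Asparagine synthetase (Asns) read 65.2 in the parietal, 409.7 in the zymogenic and 7.17 in the pit sample, and Phgdh, the first enzyme of serine synthesis, read 3.30 in the parietal, 163 in the zymogenic and 4.25 in the pit sample. Of 8 vacuolar proton pump genes above the floor none was called, against 3.34% of all genes called higher and 0.387% lower.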
